A study of Mus musculus with 10 samples.

Results

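The Pax family is described here in the first pharyngeal arch (PA1) of mouse embryos that lack GRHL2. The 8 genes *Pax1*, *Pax2*, *Pax3*, *Pax5*, *Pax6*, *Pax7*, *Pax8* and *Pax9* were taken by gene name from a table of 22114 protein-coding genes. The family was chosen by the counts of *Pax8*, which had reads in *Grhl2*-/- arches and almost none in wild-type arches, so the *Pax8* counts are given as a description without a test. The table also lists *Pax4*, which had 1 read in all arches together and is not among the 8. RNA was taken from the whole PA1, epithelium and mesenchyme together, of 5 *Grhl2*-/- and 5 wild-type (*Grhl2*+/+) male embryos at E10.5. The labels give the C57BL/6 background, and the study's methods C57BL/6J. The *Grhl2*-/- embryos were homozygous for a gene-targeted null allele, and each arch came from a separate embryo and made 1 library. Arches are called by the embryo names in the labels, in which the closing number (566, 568, 588, 604 or 628) is shared by some embryos of both genotypes and is not explained.

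Pax proteins are transcription factors that bind DNA through a paired domain, and several also carry a homeodomain. They act early in organ formation, often in a small region of an embryo, and they fall into subgroups of close relatives: PAX1 with PAX9, PAX2 with PAX5 and PAX8, PAX3 with PAX7, and PAX4 with PAX6. In the head, PAX9 acts in pharyngeal endoderm, arch mesenchyme and the palate, PAX3 and PAX7 in neural crest and dorsal neural tube, PAX6 in eye, lens and forebrain, and PAX2, PAX5 and PAX8 in ear, thyroid and the midbrain-hindbrain boundary. In several of these tissues they work with other homeobox factors and with EYA and DACH cofactors.

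Since the members share a conserved paired box and the reads were 50 bases long, the coding sequences were compared before the counts were read. The stretch below lies in the paired box and ends with the longest run of coding bases that *Pax8* shared with any other member, 27 bases also found in *Pax2*. It is shown 5′ to 3′ for *Pax8* (coding bases 154 to 213, exons 3 and 4, minus strand of chr2:24443116-24444603), *Pax2* (coding bases 172 to 231, exons 2 and 3, plus strand of chr19:44761006-44761709) and *Pax5* (coding bases 175 to 234, exons 2 and 3, minus strand of chr4:44692011-44697559). Coordinates are of GRCm38, introns are left out, and capitals mark the bases that differ from *Pax8*.
Pax8: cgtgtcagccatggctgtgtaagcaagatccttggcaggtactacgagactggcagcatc
Pax2: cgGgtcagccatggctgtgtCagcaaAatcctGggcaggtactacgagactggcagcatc
Pax5: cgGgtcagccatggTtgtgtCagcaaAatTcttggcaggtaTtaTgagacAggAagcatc

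Over these 60 bases *Pax2* differed from *Pax8* at 4 positions and *Pax5* at 9. None of the 6237 windows of 50 bases in annotated *Pax8* transcripts occurred in a transcript of another gene. The same held for *Pax2*, *Pax5* and *Pax7*. The share of such windows that also occurred in some other gene was 0.181% for *Pax1*, 0.275% for *Pax3*, 0.426% for *Pax6* and 0.732% for *Pax9*, and for each of the 8 members 0 windows were shared with another member. The longest shared coding run was 26 bases between *Pax1* and *Pax9* and 26 bases between *Pax3* and *Pax7*, both shorter than a read.

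The deposited counts covered between 22188454 and 28596428 reads per wild-type arch (median 27462069) and between 25658389 and 28801378 per *Grhl2*-/- arch (median 27687225). Levels are in CPM, reads scaled to library size with trimmed mean of M-values (TMM) factors, and are given as mean ± SD over 5 arches. Of the 22114 genes, 14561 with at least 10 reads in at least 1 arch were tested with limma-voom, and FDR is the Benjamini-Hochberg adjusted p over all of these, with calls made below 0.01. The test called 158 genes lower (1.09%) and 128 higher (0.879%) in *Grhl2*-/- PA1. At an unadjusted p below 0.05 it gave 4146 genes (28.5%). At the same FDR edgeR called 161 lower (1.11%) and 142 higher (0.975%), and DESeq2 553 lower (3.8%) and 520 higher (3.57%), and counts by these tools or by unadjusted p are to be read against these shares. *Grhl2* itself stood at 35.6 ± 3.29 CPM in the wild-type embryos and fell to 4.53 ± 1.45 CPM in the mutants, a log2 fold change of -3.02 (SE 0.174, FDR 2.67e-06). All changes are of RNA in a whole arch, in which fewer cells of a type and less RNA per cell cannot be told apart.

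Of the 8 members, 7 passed the filter on low counts and *Pax5* did not, since its highest count in any arch was 7. *Pax8* passed through its *Grhl2*-/- arches alone. Of the other 6 members tested, limma-voom called 0, with 1 (*Pax6*) at an unadjusted p below 0.05, and edgeR and DESeq2 also called 0. The shares of all tested genes are those given above for each tool, and nothing is read from the comparison because *Pax8* in the same contrast chose the family. *Pax8* was the only member whose groups did not overlap. Over all tested genes, 614 (4.22%) had every *Grhl2*-/- arch above every wild-type arch.

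**Figure D1:**
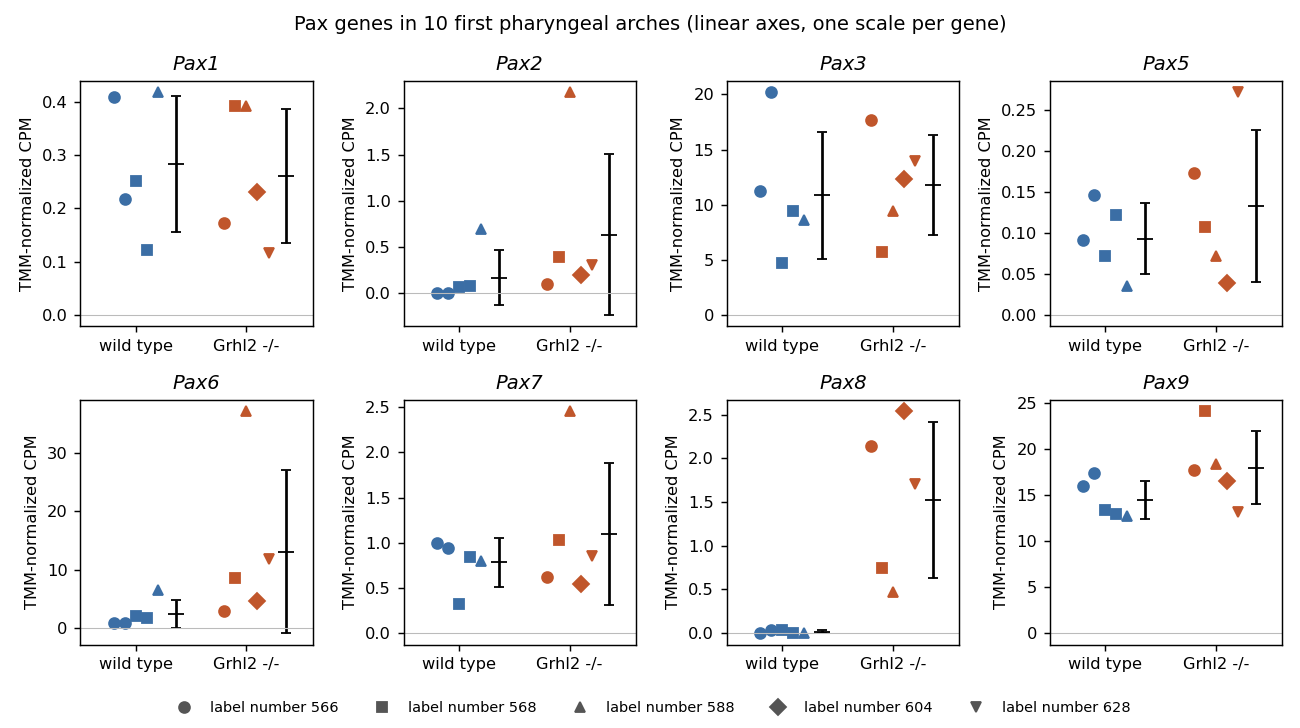
TMM-normalized CPM of the 8 Pax genes in each of 5 wild-type (blue) and 5 *Grhl2*-/- (orange) arches, on linear axes with one scale per gene; marker shapes give the label number, and black bars give the mean and SD of each genotype. *Pax8* points sit at or near 0 in the wild-type arches and above them in all 5 *Grhl2*-/- arches, while *Pax2*, *Pax6* and *Pax7* are highest in 1 *Grhl2*-/- arch, that of label number 588.

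*Pax8* encodes a factor of thyroid follicle cells that also acts in the otic placode, the midbrain-hindbrain boundary, the kidney and inhibitory interneurons. The gene (ENSMUSG00000026976) lies on the minus strand at chr2:24420560-24475599. The wild-type arches held 1 read in WT5-566, 1 read in WT1-568 and no read in WT1-566, WT8-568 and WT3-588. The *Grhl2*-/- arches held 66 reads in KO3-604, 62 in KO2-566, 44 in KO1-628, 21 in KO2-568 and 13 in KO1-588. Every *Grhl2*-/- arch was above every wild-type arch, and the lowest *Grhl2*-/- count was 13 against a highest wild-type count of 1.

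In sum, the wild-type arches gave 2 *Pax8* reads among 131604511 reads, with an exact 95% Poisson interval of 0.242 to 7.23 reads. The *Grhl2*-/- arches gave 206 among 135896472, with an interval of 178.8 to 236.1. These intervals and the one that follows cover counting error only. Per read counted, the *Grhl2*-/- arches thus held 99.75 times as many *Pax8* reads, with an exact 95% interval of 27.3 to 829.2. The ratio is a description of the counts that chose the family, and its interval is wide because the wild-type sum rests on 2 reads. The count of 0 in a single arch allows up to 3 reads, which in the shallowest wild-type arch is 0.136 CPM. The *Grhl2*-/- arches averaged 1.52 ± 0.894 CPM, from 0.464 CPM in KO1-588 to 2.55 CPM in KO3-604, with a coefficient of variation of 58.7%.

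*Pax8* was 1 of 22114 genes with at most 1 read in every wild-type arch and at least 10 in every *Grhl2*-/- arch, a rule set to the values of *Pax8* itself. The reverse pattern was found for 3 genes. In all, 5845 genes had at most 1 read in every wild-type arch.

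The exons of *Pax8* share 367 bases with Gm13415, a processed transcript on the opposite strand. The library kit keeps the strand of the RNA, and the name of the deposited table points to counting on the reverse strand, but no text used here states the setting, so reads in these bases are uncertain. *Pax1* shares exon bases with AI646519 (183 bases), *Pax5* with 5730488B01Rik (636) and Gm12462 (125) and *Pax9* with Slc25a21 (189), all on the opposite strand. *Pax2*, *Pax3*, *Pax6* and *Pax7* had no such overlap.

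The promoter of *Pax8* is shown because the family was chosen by this member's counts. RefSeq (GRCm38.p6) places the 250 bases before its start at chr2:24475600-24475849 on the minus strand, here 5′ to 3′.
Pax8: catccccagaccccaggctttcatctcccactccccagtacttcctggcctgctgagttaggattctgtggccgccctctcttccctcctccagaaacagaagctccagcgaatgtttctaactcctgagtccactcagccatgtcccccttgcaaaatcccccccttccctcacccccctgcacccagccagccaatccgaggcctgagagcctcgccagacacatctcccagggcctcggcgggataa

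This stretch is 60.4% G and C and holds 6 CpG, against medians of 52.4% and 6 over all promoters in the table. Grainyhead-like factors bind DNA at the palindrome AACCGGTT, which was searched together with the looser AACCNGTT (both strands, and every AACCGGTT is also a match to it). AACCGGTT was in 48 of 32851 promoters of 300 bases (0.146%) and AACCNGTT in 686 (2.09%). The table held 10 promoters of 7 of the 8 members, all but *Pax3*. None of the 10 held AACCGGTT, and AACCNGTT was in 1, a promoter of *Pax2* whose 250 upstream bases lie at chr19:44755502-44755751 on the plus strand, with the match AACCAGTT. A match of letters is a description of the sequence only, and no binding was measured in these arches.

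*Pax2* and *Pax5* are the closest relatives of *Pax8*. *Pax2* (ENSMUSG00000004231, chr19:44756045-44837871, plus strand) acts in optic stalk, otic vesicle and kidney. It had no read in WT1-566 and WT5-566, 2 in WT1-568, 2 in WT8-568 and 20 in WT3-588. In *Grhl2*-/- arches it had 3 reads in KO2-566, 5 in KO3-604, 8 in KO1-628, 11 in KO2-568 and 61 in KO1-588. The highest arch of each genotype was the one labelled 588, and only KO1-588 lay above the highest wild-type arch. Wild-type arches averaged 0.170 ± 0.297 CPM, and the mutant ones 0.635 ± 0.869 CPM. The log2 fold change of 2.25 (SE 1.07, 95% interval -0.10 to 4.59) did not pass the test (FDR 0.192). It was 1.59 without KO1-588 (FDR 0.227) and 3.09 without WT3-588 (FDR 0.125).

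*Pax5* (ENSMUSG00000014030, chr4:44524757-44710487, minus strand), a factor of B cells and of the midbrain-hindbrain boundary, stayed near the counting floor in both genotypes. It had 2, 4, 2, 3 and 1 reads in WT1-566, WT5-566, WT1-568, WT8-568 and WT3-588. It had 5, 3, 2, 1 and 7 reads in KO2-566, KO2-568, KO1-588, KO3-604 and KO1-628. The sums were 12 reads in wild-type arches (exact 95% Poisson interval 6.20 to 21.0) and 18 reads in the mutant ones (10.7 to 28.5), with counting error only in these intervals. Tested without the filter on low counts, *Pax5* had an FDR of 0.729 (limma-voom). Among *Grhl2*-/- arches, KO1-588 had the most *Pax2* and the fewest *Pax8* reads, and the *Pax5* counts were too low to order the arches.

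*Pax6* (ENSMUSG00000027168, chr2:105668900-105697364, plus strand), which directs eye, lens and forebrain formation, varied widely between arches of both genotypes. Wild-type arches held 16 reads in WT1-566, 21 in WT5-566, 42 in WT8-568, 54 in WT1-568 and 185 in WT3-588. *Grhl2*-/- arches held 81 in KO2-566, 120 in KO3-604, 241 in KO2-568, 307 in KO1-628 and 1046 in KO1-588. The groups overlapped through WT3-588, which exceeded KO2-566 and KO3-604, and 3 of 5 *Grhl2*-/- arches lay above every wild-type arch.

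*Pax6* averaged 2.32 CPM in wild-type arches and 13.0 CPM in the mutant ones, with coefficients of variation of 102.5% and 107.5%. The fold change was 5.04 (95% interval 1.23 to 20.6), and its limma-voom FDR of 0.129 did not pass the threshold. Without KO1-588 the log2 fold change moved from 2.33 to 1.79 (FDR 0.0785). Among arches that share a label number, the *Grhl2*-/- arch was higher than the mean of the wild-type arches each time, by 3.76-fold for 566, 4.71-fold for 568 and 5.79-fold for 588. With the label number as a replicate block, *Pax6* passed the limma-voom threshold (log2 fold change 2.36, FDR 0.00049). KO3-604 and KO1-628 add nothing to the genotype effect in that fit, since no wild-type arch shares their number. The call on *Pax6* thus depended on the model.

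*Six6*, *Six3*, *Rax* and *Mitf* act with *Pax6* and *Pax2* in the optic vesicle and were picked out after their values were seen, because WT3-588 and KO1-588 were again their highest arches. *Six6*, a homeobox gene of eye and pituitary, had 9 to 29 reads in the other wild-type arches against 131 in WT3-588, and 75 to 207 in the other *Grhl2*-/- arches against 596 in KO1-588. *Rax*, the retinal homeobox gene, had at most 2 reads in the other wild-type arches against 29 in WT3-588, and 1 to 35 reads in the other *Grhl2*-/- arches against 161 in KO1-588.

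The higher level of these optic genes in the arch labelled 588 was present in both genotypes. It was not particular to optic genes. The neural genes *Sox1*, *Sox3*, *Zic1*, *Otx2*, *Fgf15* and *Lhx1* were also highest in WT3-588 and KO1-588 within their genotype. Other neural genes, such as *Hes5*, *Fabp7* and *Pou3f2*, were not. *Six3* had 20 reads in WT3-588 and 2 to 10 in the other wild-type arches, with 111 in KO1-588 and 27 to 36 in the other *Grhl2*-/- arches. *Mitf*, which marks retinal pigment epithelium and pigment cells, had 177 reads in WT3-588 and 400 in KO1-588, against 63 to 91 and 81 to 204 elsewhere. In the limma-voom test *Six3* had log2 fold change 2.52 (SE 0.595, FDR 0.0291) and *Six6* 2.51 (SE 0.864, FDR 0.0918), and the FDR was 0.377 for *Rax* and 0.316 for *Mitf*. These levels moved with *Pax6* and *Pax2* over the arches, and their part in the *Pax6* and *Pax2* values was not tested. With both arches labelled 588 left out, *Pax6* gave a log2 fold change of 2.31 (FDR 0.0525) and *Pax2* one of 2.44 (FDR 0.0573).

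**Figure D2:**
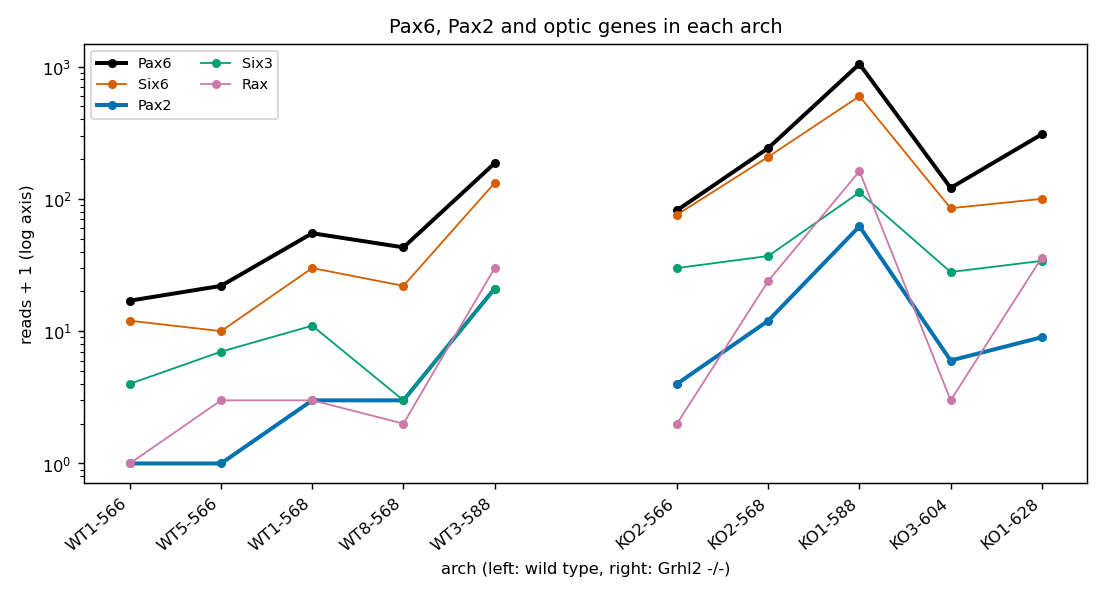
Reads plus 1 on a log axis for *Pax6*, *Pax2*, *Six6*, *Six3* and *Rax* in each arch, wild-type on the left and *Grhl2*-/- on the right; lines join the arches of one genotype and have no order in time. All 5 genes peak at WT3-588 among wild-type arches and at KO1-588 among *Grhl2*-/- arches, where *Pax6* reached 185 and 1046 reads.

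Lens genes, several of them direct targets of PAX6, were counted in the same test. The lens and optic list held 15 genes, of which 11 were tested, and 1 was called higher. Of the 11, 4 passed the filter on low counts through *Grhl2*-/- arches alone, which favours a positive sign, against 339 (2.33%) of all tested genes. Among the other 7, 6 had a positive log2 fold change and the median was 0.68. Of all tested genes that did not pass through *Grhl2*-/- arches alone, 7363 of 14222 were positive (median 0.007). The summed level of the list ranged from 28.5 to 41.4 CPM in wild-type arches and from 36.2 to 87.0 CPM in the mutant ones. *Cryge*, a lens crystallin gene that passed the filter through *Grhl2*-/- arches alone, was the one called (FDR 0.00681), with 1 read in WT1-568 and none in the other wild-type arches, and 13, 12, 30, 4 and 20 reads in KO2-566, KO2-568, KO1-588, KO3-604 and KO1-628. *Cryaa*, another crystallin gene, had no read in any wild-type arch and 28, 17, 6, 0 and 17 reads in the same *Grhl2*-/- arches (FDR 0.0913). *Crygc* had no read in wild-type and 3 to 9 in *Grhl2*-/- arches and was below the filter. Crystallin genes of this cluster are near copies, so reads may be split between them. *Prox1* (log2 fold change 0.62, FDR 0.0355) and *Maf* (0.84, FDR 0.0584), both lens fibre regulators that other tissues also use, did not pass the threshold.

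*Pax3* (ENSMUSG00000004872, chr1:78101267-78197134, minus strand) acts in neural crest, dorsal neural tube and the ophthalmic trigeminal placode. Wild-type arches held 131 reads in WT1-568, 233 in WT8-568, 248 in WT1-566, 248 in WT3-588 and 556 in WT5-566. *Grhl2*-/- arches held 160 in KO2-568, 264 in KO1-588, 319 in KO3-604, 361 in KO1-628 and 510 in KO2-566. The groups overlapped over nearly their whole range, and the means of 10.9 ± 5.75 and 11.8 ± 4.54 CPM did not differ beyond it (log2 fold change 0.19, SE 0.373, FDR 0.778). Leaving out WT1-568 turned the log2 fold change to -0.090.

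*Pax7* (ENSMUSG00000028736, chr4:139737062-139833528, minus strand), the relative of *Pax3* in neural crest and muscle progenitors, had fewer reads than *Pax3* in every arch. It had 22, 26, 9, 21 and 23 reads in WT1-566, WT5-566, WT1-568, WT8-568 and WT3-588. It had 18, 29, 69, 14 and 22 reads in KO2-566, KO2-568, KO1-588, KO3-604 and KO1-628. KO1-588 stood apart and the other 4 *Grhl2*-/- arches lay close to the wild-type arches. The log2 fold change was 0.38 (SE 0.432, 95% interval -0.57 to 1.33, FDR 0.596), and it was 0.02 without KO1-588.

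*Pax9* (ENSMUSG00000001497, chr12:56691767-56712822, plus strand) is needed for the palate and teeth and marks pharyngeal endoderm and part of the arch mesenchyme. Wild-type arches held 321 reads in WT8-568, 352 in WT1-566, 366 in WT3-588, 371 in WT1-568 and 479 in WT5-566. *Grhl2*-/- arches held 341 in KO1-628, 428 in KO3-604, 511 in KO2-566, 514 in KO1-588 and 679 in KO2-568. In CPM, 3 of 5 *Grhl2*-/- arches lay above every wild-type arch. The means were 14.5 ± 2.09 and 18.0 ± 3.98 CPM, and the fold change of 1.24 (95% interval 0.987 to 1.55) did not pass the test (FDR 0.199). Of all members *Pax9* varied least between arches, with coefficients of variation of 14.4% in wild-type and 22.1% in *Grhl2*-/- arches.

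*Pax1* (ENSMUSG00000037034, chr2:147361925-147393295, plus strand), the relative of *Pax9* in pharyngeal pouches and vertebral precursors, was read at 3 to 12 reads in wild-type and 3 to 11 in *Grhl2*-/- arches. Its log2 fold change was -0.12 (SE 0.419, 95% interval -1.04 to 0.80, FDR 0.879). The interval allows a change of either sign.

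Levels were set beside each other per kilobase of exon. In wild-type arches the order was *Pax9* (2.87 CPM per kb), *Pax3* (1.75), *Pax6* (0.198), *Pax7* (0.134), *Pax1* (0.0631), *Pax2* (0.0314), *Pax5* (0.0105) and *Pax8* (0.00239). The ranges over the 5 arches overlapped between all neighbours in this order except *Pax3* (0.761 to 3.27) and *Pax6* (0.0622 to 0.551). *Pax9* and *Pax3* were thus the members with a sizeable level in wild-type PA1. In *Grhl2*-/- arches *Pax8* stood at 0.251 CPM per kb (0.0765 to 0.421), after *Pax9* (3.56), *Pax3* (1.91) and *Pax6* (1.11), and before *Pax7* (0.188), *Pax2* (0.117), *Pax1* (0.0581) and *Pax5* (0.0149). There the ranges of all neighbours overlapped.

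**Figure D3:**
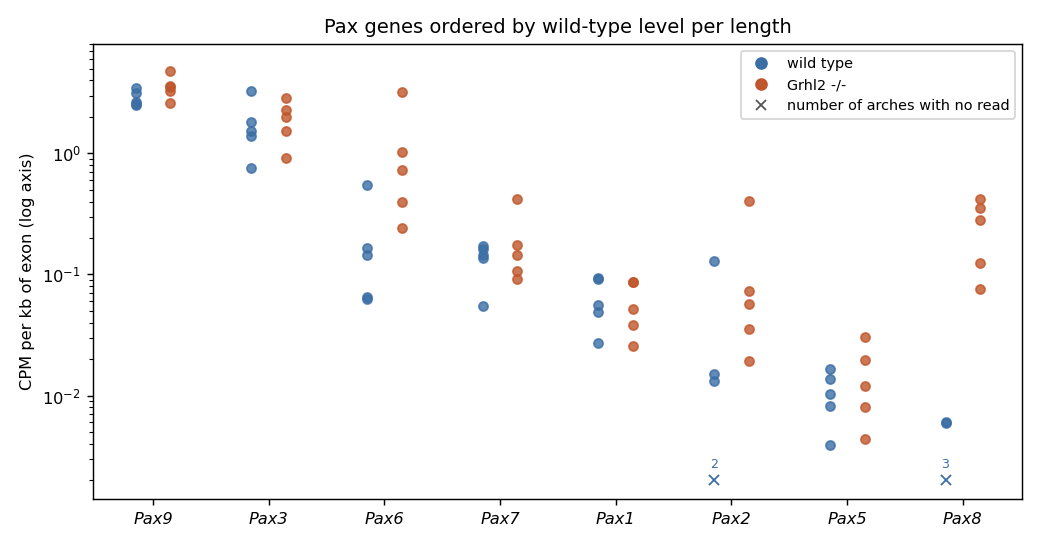
CPM per kilobase of exon on a log axis for each Pax gene, in the order of the wild-type mean, with one point per arch (wild-type blue, *Grhl2*-/- orange) and a cross with the number of arches that had no read. *Pax8* moves from last in wild-type (0.00239 CPM per kb) to the range of *Pax7* and *Pax2* in *Grhl2*-/- arches (0.251).

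The arches differed in how much sensory neuron RNA they held, and this was set beside the Pax counts. The sum of 14 sensory neuron genes was 50.9 CPM in WT1-566, 814.2 in WT5-566, 45.0 in WT1-568, 517.1 in WT8-568 and 505.1 in WT3-588. It was 1036 CPM in KO2-566, 312.2 in KO2-568, 281.8 in KO1-588, 743.6 in KO3-604 and 761.5 in KO1-628. The groups overlapped. Of the 14 genes, 12 passed the filter on low counts in wild-type arches too, and these had a positive log2 fold change (median 1.96). Over all such tested genes, 7363 of 14222 were positive (median 0.007). The wild-type side of the neuron median includes the low values of WT1-566 and WT1-568. Limma-voom called 1 of the 14. This was *Phox2a*, a regulator of visceral sensory and motor neurons, with 0 to 2 reads in wild-type and 7 to 20 in *Grhl2*-/- arches (log2 fold change 3.05, FDR 0.00927), so it passed the filter through the latter alone.

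Among *Grhl2*-/- arches, the 3 with the most *Pax8* reads (KO3-604, KO2-566 and KO1-628) were also the 3 with the highest neuron sums. Among wild-type arches, WT5-566 had a neuron sum of 814.2 CPM, above 4 of the 5 *Grhl2*-/- arches, and 1 *Pax8* read. WT8-568 and WT3-588 had sums of 517.1 and 505.1 CPM, above KO2-568 and KO1-588, and no *Pax8* read. *Pax3* was highest in WT5-566 and KO2-566, which also had the highest neuron sum of their genotype, and lowest in WT1-568 and KO2-568. The part of neuron RNA in the *Pax8* and *Pax3* reads was not tested. With both wild-type arches of low neuron sum left out, *Pax3* had a log2 fold change of -0.12.

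**Figure D4:**
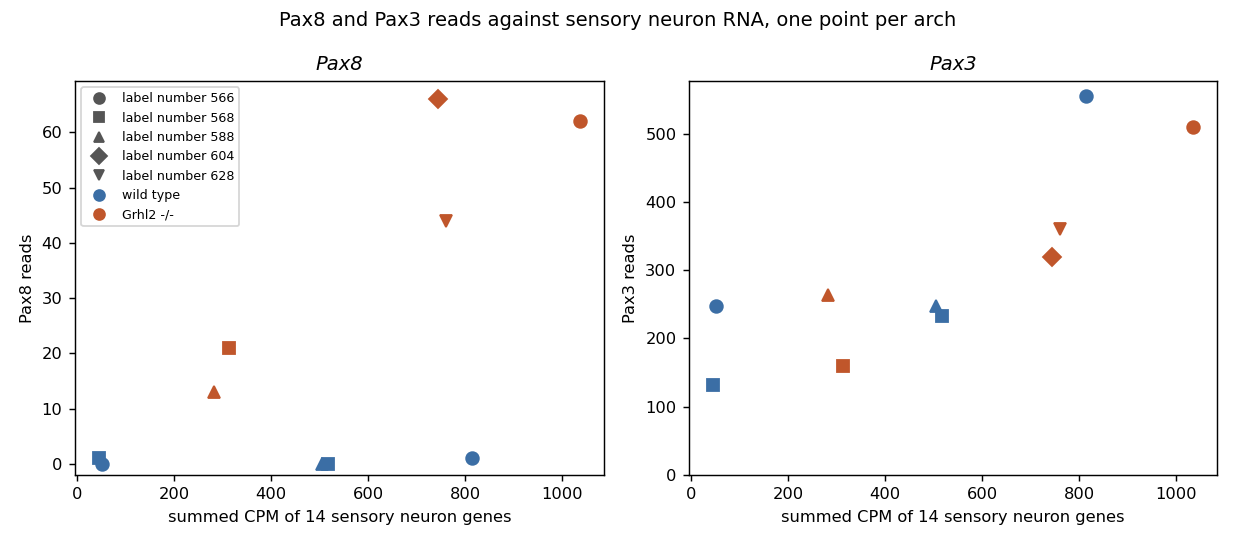
*Pax8* reads (left) and *Pax3* reads (right) against the summed CPM of 14 sensory neuron genes, one point per arch, with genotype by colour and label number by shape. The wild-type arches, with neuron sums of 45.0 to 814.2 CPM, have 0 or 1 *Pax8* read, the *Grhl2*-/- arches with 281.8 to 1036 CPM have 13 to 66, and *Pax3* is highest in an arch of each genotype with a high neuron sum.

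Lists of genes for the tissues in which *Pax8* is known to act were counted in the same test, and calls are those of limma-voom where no other tool is named. In these lists some genes passed the filter on low counts through *Grhl2*-/- arches alone, which raises the median. They were 1 otic gene (median of the others 0.31), 1 thyroid gene (0.24), 1 gene of the midbrain-hindbrain boundary (0.12), 3 of 5 interneuron genes and 1 pharyngeal endoderm gene (0.16). For every list here edgeR gave the same numbers of calls. DESeq2 called more in some, with 4 higher among lens and optic genes, 2 higher and 2 lower for the midbrain-hindbrain boundary, 3 higher among neural tube progenitor genes, 3 higher in pharyngeal endoderm, 2 higher among sensory neuron genes and 7 lower in ectomesenchyme. The otic list held 12 genes, of which 7 were tested, 1 was higher and 1 lower (median log2 fold change 0.41). *Oc90*, an otic vesicle marker, had no read in any arch. *Foxi3*, a regulator of placode and arch ectoderm, rose from 14 to 26 reads in wild-type to 43 to 92 reads in *Grhl2*-/- arches (log2 fold change 1.72, FDR 0.00556), and *Tbx2*, which the arch mesenchyme also expresses, fell (log2 fold change -0.60, FDR 0.00136). *Hmx3*, an otic homeobox gene, had 0 to 2 reads in wild-type and 5 to 12 in *Grhl2*-/- arches (FDR 0.0164). It is the otic gene that passed the filter through *Grhl2*-/- arches alone. The otic sum was 240.5 to 264.4 CPM in wild-type and 180.5 to 213.7 CPM in *Grhl2*-/- arches, and *Tbx2* made up most of it. Without *Tbx2* the sums overlapped, at 32.8 to 76.0 and 54.8 to 86.2 CPM, and much of that remainder was *Sox10*, also a glia gene, at 25.0 ± 20.7 and 42.5 ± 16.3 CPM.

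Of 7 thyroid genes 5 were tested and 0 were called by limma-voom, edgeR or DESeq2, with 2 at an unadjusted p below 0.05 (median 0.45). *Nkx2-1*, a defining factor of the thyroid primordium, had 0 or 1 read per wild-type arch and 0 to 2 per *Grhl2*-/- arch. *Foxe1*, which oral epithelium also expresses, had log2 fold change 0.48 (FDR 0.151) and *Hhex* 0.02 (FDR 0.949). The thyroid sum was 11.96 to 17.1 CPM in wild-type arches and 13.75 to 26.1 CPM in the mutant ones.

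Of 10 genes of the midbrain-hindbrain boundary, 8 were tested and 1 was called, *Fgf15*, a growth factor gene of midbrain and pharyngeal tissue, which rose from 1 to 23 reads to 38 to 103 reads (log2 fold change 3.05, FDR 0.00814). *En1* had at most 2 reads in any arch, and *Fgf8* (log2 fold change -0.55, FDR 0.0422) and *Otx2* (2.06, FDR 0.0289) did not pass the threshold. The list's median was 0.23 and its sum was 39.2 to 48.9 CPM in wild-type arches and 39.9 to 71.5 CPM in the mutant ones. Without *Otx2* the sums were 33.2 to 39.7 and 27.0 to 33.2 CPM.

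Of 10 genes of spinal and hindbrain interneurons, 5 were tested, limma-voom and edgeR called 0, DESeq2 called 1 and 3 had an unadjusted p below 0.05, while the other 5 had at most 3 reads in every arch. *Lhx1* had log2 fold change 1.11 (FDR 0.303). The sum of the list was small, at 0.409 to 1.46 CPM in wild-type arches and 1.47 to 4.49 CPM in the mutant ones. Of 12 neural tube progenitor genes 11 were tested, all with a positive log2 fold change (median 1.16). The median was 1.10 over the 10 that did not pass the filter through *Grhl2*-/- arches alone. Over all such tested genes, 7363 of 14222 were positive (median 0.007). The test called 1 progenitor gene, *Nes*, an intermediate filament gene of neural and other progenitors (log2 fold change 0.40, FDR 0.00702). The progenitor sum was 168.0 to 236.8 CPM in wild-type arches and 238.3 to 326.3 CPM in the mutant ones. *Nes* made up most of this sum, and without it the genotypes overlapped, at 26.5 to 63.6 and 52.2 to 101.9 CPM. The interneuron sums, at 1.46 CPM in the highest wild-type and 1.47 CPM in the lowest *Grhl2*-/- arch, were almost in contact. The part of these tissues in the *Pax8* reads was not tested.

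The partner genes of Pax factors were counted next. All 12 listed homeobox, *Eya* and *Dach* genes were tested, with a median log2 fold change of 0.29 against 0.01 over all genes. *Eya1*, a coactivator gene of this network, stood at 137.3 ± 7.83 CPM in wild-type PA1 and fell to 109.7 ± 1.58 CPM, by 0.32 on the log2 scale (FDR 0.00113). *Six5* stood at 29.6 ± 1.54 CPM and rose to 36.9 ± 1.24 CPM, by 0.32 on the log2 scale (FDR 0.00277). Limma-voom and edgeR each called 1 gene higher and 1 lower in this list and DESeq2 called 3 higher and 1 lower, and the sum was 734.1 to 809.5 CPM in wild-type arches and 708.9 to 781.7 CPM in the mutant ones.

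Tissues in which *Pax9*, *Pax1*, *Pax3* and *Pax7* act were counted in the same way. Of 8 pharyngeal endoderm genes 7 were tested and 1 was higher, *Nkx2-3* (log2 fold change 0.96, FDR 0.00715), with a list median of 0.24 and sums of 22.8 to 28.0 and 26.0 to 36.9 CPM. *Sox17* (0.40, FDR 0.0110) and *Tbx1* (0.08, FDR 0.891) did not pass the threshold. Of 9 arch muscle genes 8 were tested, and limma-voom, edgeR and DESeq2 called 0, with 1 at an unadjusted p below 0.05 (median -0.09). *Met* had log2 fold change -0.16 (FDR 0.414), and the sums were 69.3 to 84.7 and 56.3 to 110.3 CPM. All 7 ganglion glia genes were tested, and limma-voom, edgeR and DESeq2 called 0, with 0 at an unadjusted p below 0.05 (median 0.81). *Sox10*, the neural crest and glia factor that PAX3 regulates, had log2 fold change 1.36 (FDR 0.204), *Erbb3* had -0.15 (FDR 0.822), and the sums were 48.0 to 206.5 and 81.2 to 238.1 CPM.

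The lists for the tissues that make up PA1 had reads in every arch, and some of their genes were called between genotypes while others were not. Of 12 surface and oral epithelium genes, *Grhl2* included, 6 fell (median log2 fold change -1.13), among them *Epcam*, an epithelial adhesion gene (-2.51), *Krt5*, a basal keratin gene (-2.64), and *Ovol1*, an epithelial transcription factor gene (-3.76). The epithelial sum was 417.1 to 532.7 CPM in wild-type arches and 297.5 to 358.1 CPM in the mutant ones. Of 12 ectomesenchyme genes 3 fell, *Lhx6* (-1.29, FDR 0.000385), *Lhx8* (-1.04, FDR 2.66e-05) and *Msx1* (-0.66, FDR 0.00595), all transcription factor genes of jaw and tooth mesenchyme. The median was -0.30, and the sum was 1562 to 2006 CPM in wild-type arches and 1185 to 1472 CPM in the mutant ones. *Pax9* and *Pax3*, the most abundant members, had positive log2 fold changes of 0.31 and 0.19 in the same arches, neither past the threshold.

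Tested genes most like each member over the 10 arches were found by the sum of absolute differences between their ranks of CPM, where 0 is the same order. Ties at the third place leave further genes unnamed: the genes at or below the third sum numbered 6 for *Pax8* and *Pax6*, 4 for *Pax2* and *Pax9*, 11 for *Pax3* and 3 for *Pax7*. For *Pax8* the named ones were *Dpp6* (sum 4), a potassium channel subunit gene, *Jag1* (6), a Notch ligand gene, and *Tmem136* (6). *Dpp6* had 37 to 78 reads in wild-type and 92 to 115 in *Grhl2*-/- arches, so the relative difference between genotypes was smaller than that of *Pax8*. For *Pax6* they were *She* (2), *Sept10* (4) and *Cmtm6* (4), and for *Pax2* they were *Cmtm6* (3), *Usp25* (5) and *Cdk5rap3* (5). *Cmtm6* ranged only from 773 to 1212 reads, so the likeness is one of order and not of size. For *Pax3* they were *Hectd3* (6), *Tmem35* (6) and *Rai14* (8), for *Pax7* they were *P2ry1* (8), *Spdya* (8) and *Prss35* (10), and for *Pax9* they were *Zfp651* (2), *Gpr108* (4) and *Sulf1* (6). *Sulf1*, a heparan sulphate sulphatase gene, had 2935 to 4032 reads in wild-type and 3489 to 6780 in *Grhl2*-/- arches, with KO2-568 highest as for *Pax9*. These genes were searched among all 14561, and the orders are over the same 10 libraries, so they are given as a description.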

How the data were processed

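PA1 RNA-seq of 10 male E10.5 embryos was used. The authors mapped 50-base single-end reads of stranded libraries depleted of ribosomal RNA (3 lanes) to GRCm38 using STAR, ran featureCounts, and deposited raw counts of 22114 protein-coding genes. A second deposited table, with the authors' own log2 fold changes, adjusted p-values and average expression beside a repeat of these counts, was not used. Each of the 10 count columns matched 1 sample title, and 0 columns of other samples were found.

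The fit kept every gene that reached 10 counts in some arch (14561 genes) and was run in R 4.3.3, where edgeR 4.0.16 supplied TMM factors and limma 3.58.1 supplied voom, lmFit and eBayes. Genotype was the sole term, and p-values were adjusted over all genes kept (Benjamini-Hochberg). The settings varied were the test (edgeR quasi-likelihood, DESeq2 1.42.0), the scaling (library size, median of ratios), the filter (none, or 10 counts reached in 5 arches), arch weights (voomWithQualityWeights), a replicate block by label number, an FDR threshold of 0.05, and omission of each arch. Omission of both arches labelled 588, or of both wild-type arches low in sensory neuron genes, was added after seeing the data. Poisson intervals are exact at 95%, and the floor is 3 reads. The scripts were tested on simulated counts.

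The members and gene lists were chosen with earlier results of these data known. Named are the members, *Grhl2*, in each list the called genes (at most 4, by absolute log2 fold change) or, with fewer than 2 called, also the 2 with the highest mean CPM, and for *Pax8* and each member averaging 10 counts or more the 3 genes nearest in rank. List genes named outside this rule were chosen after their values were seen, and the values of some listed genes are not reported here. Gene models, coding sequences and overlaps came from the GENCODE M21 annotation of GRCm38, and promoters from RefSeq on GRCm38.p6.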

Additional observations from a re-analysis of the deposited data

Results flagged for a closer look

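In 6 of 41 groups of 5 arches examined, 1 arch stood far from the other 4, its gap to the nearest one taking up more than 0.71 of the range of the group. About 2.05 of 41 such cases would be given by chance if the groups were independent and their values normal. Neither holds here, since *Pax2* counts were low and skewed and *Pax2* moved with *Pax6* over the arches. The number is therefore a rough guide and not a test. All 6 were arches labelled 588. *Pax2* was 0.697 CPM in WT3-588 against 0.0808 in the next wild-type arch (0.884 of the range) and 2.18 CPM in KO1-588 against 0.391 in the next *Grhl2*-/- arch (0.861). *Pax6* was 6.45 CPM in WT3-588 against 1.94 (0.788) and 37.3 CPM in KO1-588 against 11.9 (0.737). *Pax7* was 2.46 CPM in KO1-588 against 1.03 (0.744). The sum of the arch muscle genes was 84.7 CPM in WT3-588 against 71.6 (0.851). The arches labelled 588 were 1 per genotype, and what the number stands for is not given in the labels, so its part in these values was not tested.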

How the results depend on the processing

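Of the 6 members tested other than *Pax8*, *Pax2*, *Pax6*, *Pax7* and *Pax9* kept a positive log2 fold change under every alternative that gave a value (1.59 to 3.09, 1.79 to 2.85, 0.02 to 0.65 and 0.19 to 0.48). The filter of 10 counts in 5 arches dropped *Pax2* and *Pax1*. *Pax1* changed sign with the replicate block (0.066), without WT1-566, WT3-588 or KO1-628 (single arches left out, -0.35 to 0.10) and without both wild-type arches low in sensory neuron genes (0.035). *Pax3* did so without WT1-568 (single arches left out, -0.090 to 0.47) and without those 2 arches (-0.12). *Pax6* had an FDR of 0.0644 with edgeR and 0.0242 with DESeq2, and between 0.0634 and 0.227 as single arches were left out. Without the filter, *Pax5* had a log2 fold change of 0.31 (FDR 0.729). Genes called lower and higher numbered 553 and 520 with DESeq2, 564 and 559 at FDR 0.05, 125 and 60 without both arches labelled 588, and 90 and 19 without the 2 wild-type arches low in neuron genes. With voomWithQualityWeights 204 were higher. Leaving out single arches gave 110 to 249 lower and 42 to 143 higher genes. The cause of these shifts was not tested.

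With the label number as a replicate block, 69 genes were lower and 60 higher, of which 63 and 31 were also called without it. In that fit the log2 fold change was 2.36 for *Pax6* (FDR 0.00049) and 1.86 for *Pax2* (FDR 0.0176). The arches KO3-604 and KO1-628 share their number with no wild-type arch, so they add nothing to the genotype effect there. The blocked effect thus rests on the arches numbered 566, 568 and 588, and not on all arches. Correlations of deviations between same-numbered arches were -0.318 to 0.495, with a mean of 0.0919 over 5 pairs against -0.0212 over 20 other pairs, and 3 of 8 arches correlated best with an arch of their own number.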
